A study of Mus with 6 samples.

Results

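The genes described here encode proteins of the cytosolic ribosome. They are 56 Ensembl gene IDs out of 35304 in the count table, taken from a list that pairs each ID with a gene symbol: 31 genes of the large subunit, among them the 3 genes of the ribosomal stalk (Rplp0, Rplp1 and Rplp2), and 25 genes of the small subunit. The list is defined by gene identity and uses no measured value, but it was chosen with earlier results of these data known. RNA sequencing of total RNA had been done on 6 samples of the murine breast cancer line 4T1, kept in medium with serum. Of these, 3 were left untreated and 3 were exposed for 24 h to 10 µg/mL of IPA, isopimaric acid, a resin acid of conifers that the series title calls an ion channel regulator; no vehicle is named for the untreated samples. All samples come from a single cell line, and the labels do not say whether the replicates were separate cultures, so the p-values reflect how these samples vary, and that variation may be technical. The other IDs of the table are not paired with gene names in the sources used here, so the remaining ribosomal protein genes, elongation factors, ribosome biogenesis genes, mitochondrial ribosomal proteins and the markers of mammary, stromal, blood, liver and endothelial cells were not analysed here.

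The ribosome is built from a small subunit, which binds the mRNA and reads its codons, and a large subunit, which forms the peptide bonds and holds the exit tunnel. Each subunit combines ribosomal RNA with a set of proteins, and the mRNAs of these proteins are among the most abundant of growing cells. In mammals most of these mRNAs begin with a run of pyrimidines, the TOP motif, through which the growth-regulating kinase mTORC1 sets their translation, and ribosomal protein mRNAs commonly vary together. Surplus ribosomal proteins can bind Mdm2, the ligase that degrades p53, which links ribosome assembly to growth arrest.

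All 56 genes were well covered. The libraries held from 3410411 counts (IPA replicate 1) to 58924711 counts (untreated replicate 2), and the lowest count of any of the 56 genes in any library was 224, for Rps18 in IPA replicate 1. Levels are given as CPM, the counts of a gene per 1e+06 counts of its library. Over the whole table untreated replicate 2 was the odd one out, its log2 CPM correlating across IDs at 0.779 to 0.811 with the rest, which correlated at 0.922 to 0.987 with each other. The comparisons are therefore given with and without it. CPM values are not corrected for transcript length, so levels of different genes are not ranked against each other. In bulk RNA, fewer cells expressing a gene and less of its RNA per cell cannot be told apart.

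Leaving that library aside, the shares of counts in ribosomal protein genes overlapped between treated and untreated cells. The 56 genes together held 1.79%, 6.50% and 2.17% of the counts in untreated replicates 1, 2 and 3 and 2.43%, 2.08% and 1.87% in IPA replicates 1, 2 and 3. The IPA libraries thus averaged 2.13 ± 0.283% (SD, n = 3), and untreated replicates 1 and 3 averaged 1.98 ± 0.272% (SD, n = 2). Over all 3 untreated libraries the mean was 3.49 ± 2.62% (SD, n = 3). The IPA range overlapped the range of untreated replicates 1 and 3, and untreated replicate 2 lay far above both. The large-subunit genes gave 1.09%, 3.67% and 1.32% in the untreated libraries and 1.46%, 1.27% and 1.14% in the IPA libraries. The small-subunit genes gave 0.704%, 2.83% and 0.851% in the untreated libraries and 0.966%, 0.811% and 0.730% in the IPA libraries. The ratio of large- to small-subunit counts was 1.54 and 1.56 in untreated replicates 1 and 3 and 1.52, 1.57 and 1.56 in IPA replicates 1, 2 and 3, whereas it was 1.30 in untreated replicate 2. Outside untreated replicate 2, the balance between the subunits thus kept within 1.52 to 1.57 in both groups.

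**Figure D1:**
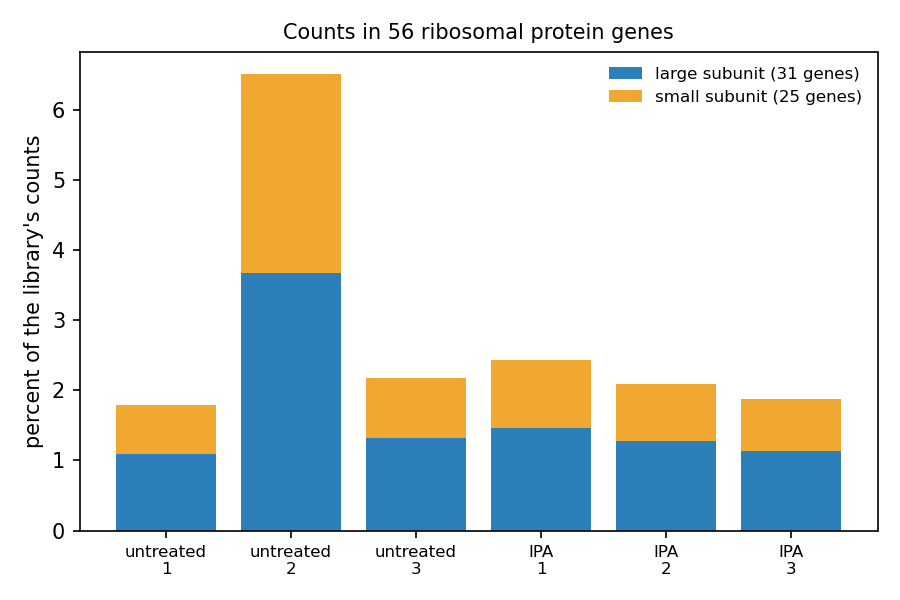
Percent of each library's counts (vertical axis) in the 31 large-subunit and 25 small-subunit genes, stacked, for the 3 untreated and 3 IPA libraries (horizontal axis). Untreated replicate 2 reaches 6.50%, and the other 5 libraries lie between 1.79% and 2.43%.

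IPA treatment was followed by no change that passed the test in any of the 56 genes. Over all 6 libraries, edgeR's quasi-likelihood test with Benjamini-Hochberg adjustment called 0 of 56 genes, as it called 0 of all 24935 IDs tested (0%). At an unadjusted p under 0.05 it passed 0 of the 56, against 6.26% of all IDs. DESeq2 called 0 of the 50 to which it gave an adjusted p, against 0.656% of all IDs; the 6 without one (Rps27a, Rpl14, Rplp1, Rpl38, Rps14 and Rps12) were among the 7 most negative, at log2 fold changes of -2.73 to -1.75. limma-voom called 0 of 56 and 0 of all IDs. The fitted log2 fold changes of the 56 genes had a median of -0.83, against -0.080 for all IDs. Of the 56, 55 were negative, against 13584 of all 24935 IDs. But the standard errors ran from 0.21 to 1.17, every 95% interval included 0 and the lowest edgeR adjusted p was 0.657. Scaled to library totals instead of TMM factors, 48 were negative, against 10592 of the 24935 IDs. The median was then -0.49, beside 0.13 for all IDs. In untreated replicate 2, 48 of the 56 genes had their highest CPM of the 6 libraries. The share of all IDs that were highest there was not computed.

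With untreated replicate 2 left out, the median log2 fold change of the 56 genes was 0.035, against -0.042 for all IDs. Of the 56, 35 were positive and 21 negative, against 11713 and 13879 of all IDs. With library totals as the scale the median was 0.14, beside 0.062 for all IDs. On that scale 46 were positive and 10 negative, against 14367 and 11225 of all IDs. With TMM factors and IPA replicate 1 left out as well, 23 were positive and 33 negative, against 12314 and 12665. The folds ran from 0.809 (Rps24) to 1.37 (Rpl30), and the standard errors from 0.13 to 0.25 on the log2 scale. edgeR called 0 of 56 genes in this comparison of 2 untreated with 3 IPA libraries, against 3.46% of the 25592 IDs tested, and the adjusted p-values of the 56 ran from 0.272 to 0.996. At an unadjusted p under 0.05 it passed 2 of 56, or 3.57%, against 16.8% of all IDs. DESeq2 on the same 5 libraries called 0 of 56, against 8.36% of the IDs to which it gave an adjusted p. The 95% interval lay within a fold of 2 in either direction for all 56 genes and within a fold of 1.5 for 52 of them, so larger differences than these were outside the intervals in these 5 libraries; the intervals are per gene, and edgeR shares its estimate of spread between genes. With library totals as the scale these numbers were 55 and 41. The exceptions to the bound of 1.5 with TMM factors were Rpl30, Rps14, Rps16 and Rps24. Large-subunit genes had a median log2 fold change of 0.013 and small-subunit genes of 0.069.

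**Figure D2:**
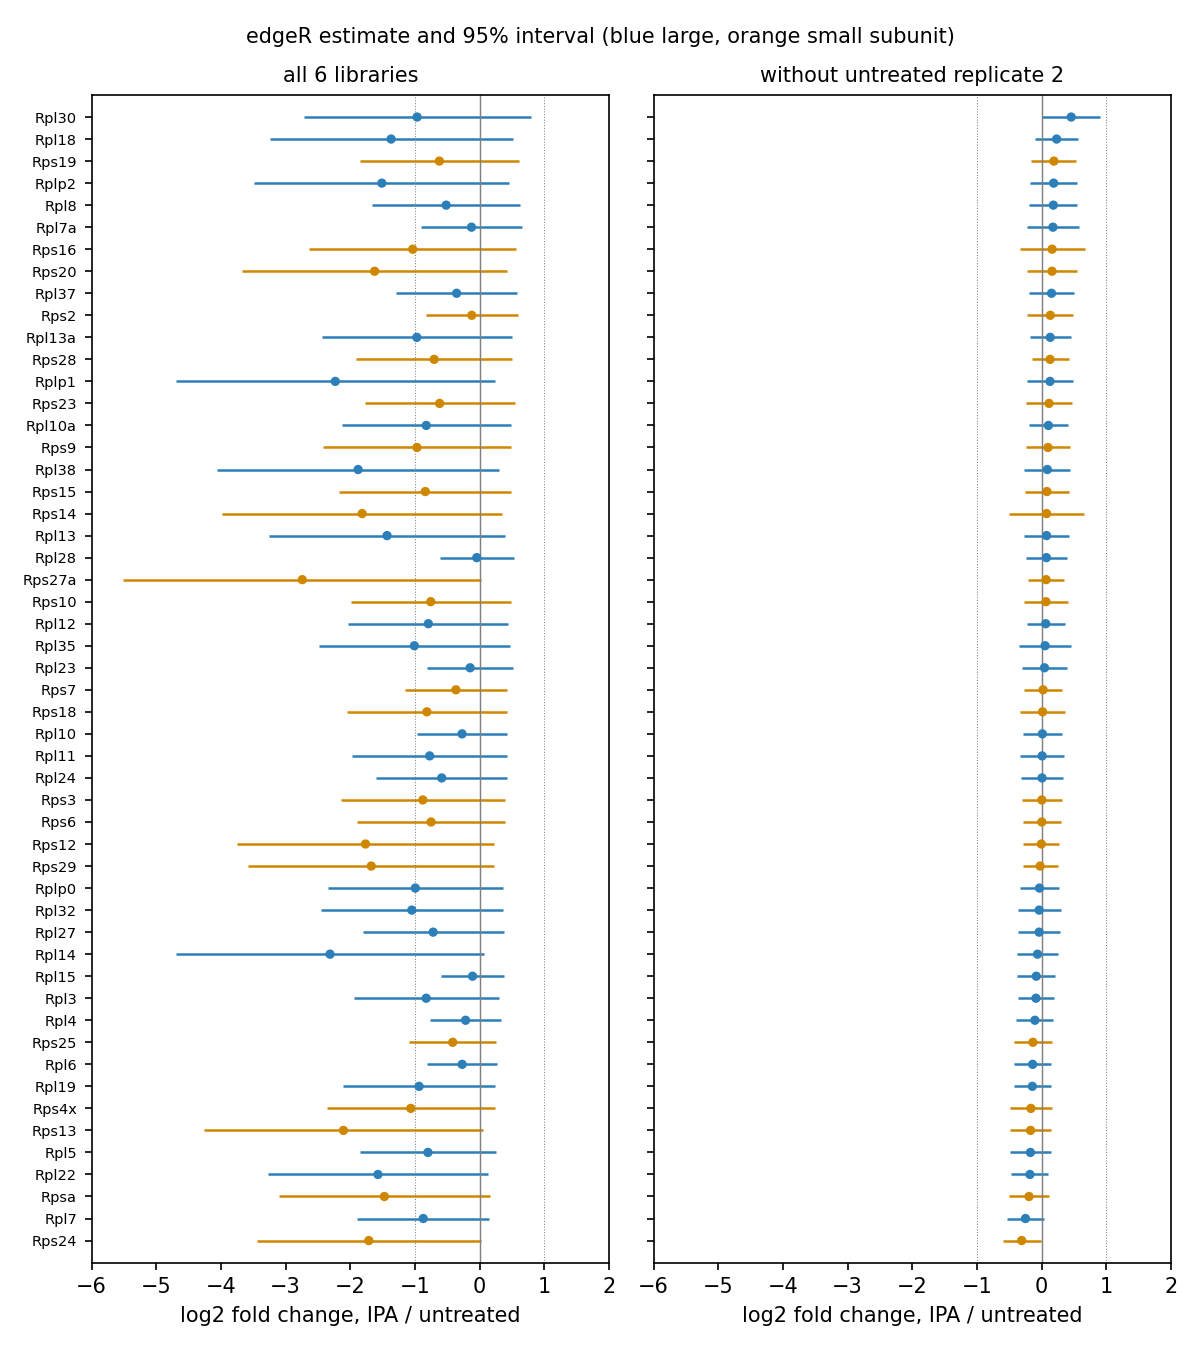
Log2 fold change of IPA over untreated (horizontal axis; point, edgeR estimate; line, 95% interval) for 52 of the genes (rows), with all 6 libraries at left and without untreated replicate 2 at right; dotted lines mark a fold of 2. At left all 52 estimates are negative with intervals that include 0, and at right all 52 intervals lie inside the dotted lines.

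**Figure D3:**
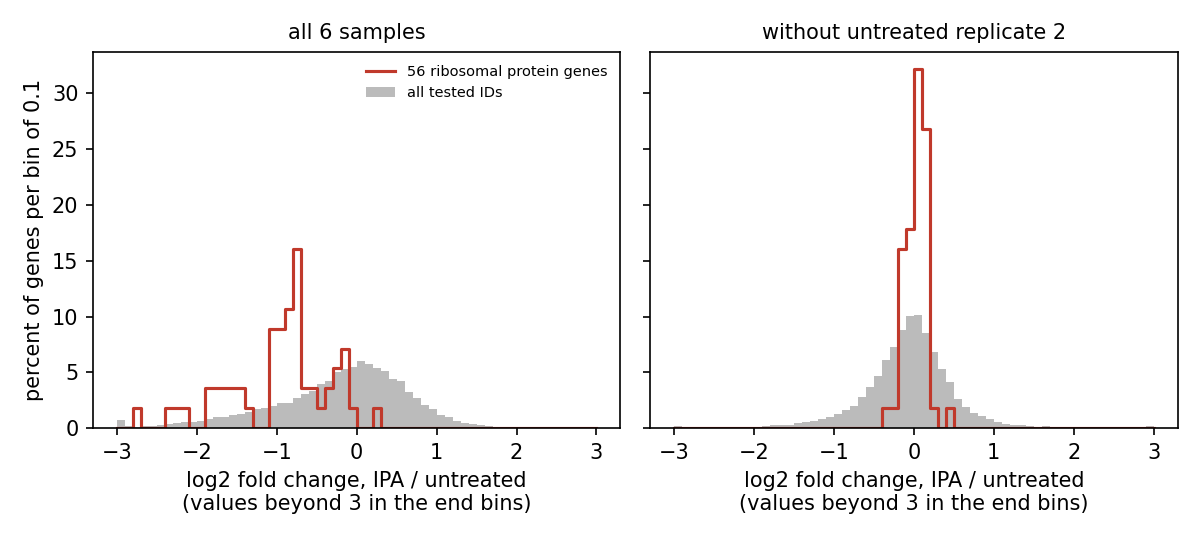
Percent of genes per bin of log2 fold change for the 56 ribosomal protein genes (line) and all tested IDs (bars), with all 6 samples at left and without untreated replicate 2 at right. The median of the 56 genes is at -0.83 at left and 0.035 at right, while that of all IDs is at -0.080 and -0.042.

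The 56 genes also varied between replicates of 1 group. The mean CPM of the 3 IPA libraries was a median of 1.11 times that of untreated replicates 1 and 3, from 0.874 to 1.47 times over the 56 genes. Untreated replicate 3 was above untreated replicate 1 in 51 of the 56 genes, with a median ratio of 1.25 and a range from 0.895 to 1.75. IPA replicate 1, the shallowest library, was above the mean of IPA replicates 2 and 3 in 51 of 56, with a median ratio of 1.23. IPA replicate 3 was below IPA replicate 2 in 52 of 56, with a median ratio of 0.895. The mean of the 3 IPA libraries lay between the values of untreated replicates 1 and 3 in 35 genes, above both in 18 and below both in 3. These ratios and counts use library totals, and the matching shares of all IDs were not computed. Whether such shifts are particular to the 56 genes was not tested. Untreated replicate 3 and IPA replicate 2, from different groups, had profiles over the 56 genes closer than those of untreated replicates 1 and 3: the SD over genes of the log2 ratio was 0.129 and 0.255, and the interquartile range 0.104 and 0.400. Between IPA replicates 2 and 3 the SD was 0.165 and the interquartile range 0.0974. Between untreated replicate 2 and any other library this SD was 0.956 to 1.01, and the interquartile range 1.08 to 1.17. Over all IDs tested, the interquartile range with that library was 2.29 to 2.57, wider than in the 56 genes. For untreated replicate 3 and IPA replicate 2 it was 0.544 over all IDs, and for untreated replicates 1 and 3 it was 0.618. All IDs were not matched to the 56 genes for level. Over all 6 libraries the CPM ranges of the 2 groups overlapped in all 56 genes, whereas they did not overlap in 22.1% of all IDs tested. Without untreated replicate 2 they did not overlap in 2 of 56 genes (Rpl30 and Rps27a, both higher with IPA), against 33.7% of all IDs in either direction and 19.8% with IPA higher.

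**Figure D4:**
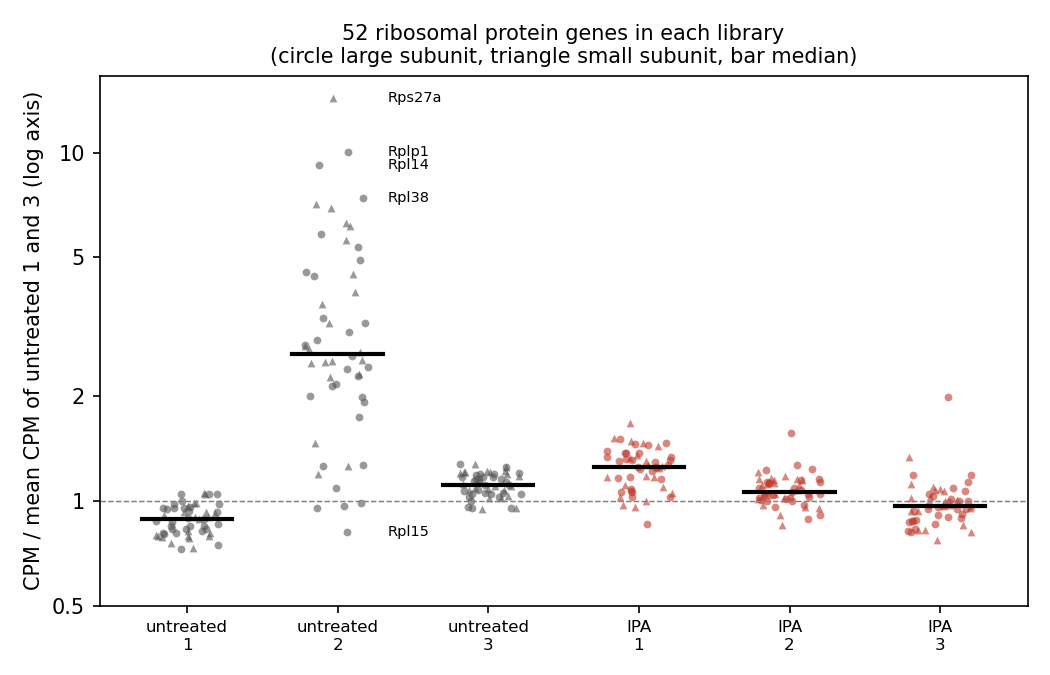
CPM of 52 of the genes in each library divided by its mean CPM in untreated replicates 1 and 3 (vertical log axis), with circles for large-subunit and triangles for small-subunit genes and a bar at the median. Points of untreated replicate 2 spread from 0.815 (Rpl15) to 14.3 (Rps27a), and the medians of the other libraries lie near 1.

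The stalk of the large subunit recruits the elongation factors: Rplp0 anchors it, and Rplp1 and Rplp2 bind to Rplp0 as acidic heterodimers. Rplp0 (ENSMUSG00000067274) stood at 707, 2299 and 879.8 CPM in untreated replicates 1, 2 and 3 and 919, 827 and 764 CPM in IPA replicates 1, 2 and 3. Rplp1 (ENSMUSG00000007892) stood at 445, 5581 and 665 CPM untreated and 770, 635 and 562 CPM with IPA, in replicate order. Rplp2 (ENSMUSG00000025508) stood at 153, 1196 and 258 CPM untreated and 281, 253 and 224 CPM with IPA. All 3 genes were highest in untreated replicate 2, where Rplp1 was 10.1 times, Rplp2 5.82 times and Rplp0 2.9 times its mean in untreated replicates 1 and 3, so that the acidic pair stood further out than their anchor. In the remaining 5 libraries the groups overlapped for each. In the comparison that omits it, the log2 fold changes were -0.031 ± 0.15 for Rplp0, 0.13 ± 0.17 for Rplp1 and 0.19 ± 0.17 for Rplp2 (SE), none of which passed the edgeR test (lowest adjusted p = 0.679). With all 6 libraries they were -0.99 ± 0.57, -2.23 ± 1.05 and -1.51 ± 0.83, in the same order.

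Rpl5 and Rpl11 join 5S ribosomal RNA in the particle that can bind Mdm2, and Rpl23 binds Mdm2 as well. Rpl5 (ENSMUSG00000058558) stood at 714, 1367 and 657 CPM untreated and 789.6, 624 and 560 CPM with IPA. Rpl11 (ENSMUSG00000059291) stood at 259, 728 and 351 CPM untreated and 400.2, 327 and 269 CPM with IPA. Rpl23 (ENSMUSG00000071415) stood at 301, 389 and 412 CPM untreated and 488, 372 and 333 CPM with IPA. By library totals, untreated replicate 2 was the highest library for Rpl5 and Rpl11, while for Rpl23 it lay between untreated replicates 1 and 3 and IPA replicate 1 was the highest. This order for Rpl23 depends on the scale. The TMM factors were 0.754 in untreated replicate 2, 1.02 in untreated replicate 3 and 1.11 in IPA replicate 1. With untreated replicate 2 omitted, the fold with IPA was 0.888 for Rpl5 (95% interval 0.713 to 1.11), 1.01 for Rpl11 (0.796 to 1.27) and 1.03 for Rpl23 (0.814 to 1.31). The adjusted p-values (edgeR) were 0.657, 0.99 and 0.94.

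Other large-subunit proteins with a known individual role also failed to pass the test. Rpl10 (ENSMUSG00000008682), which is added late in subunit assembly, stood at 548, 721 and 598 CPM untreated and 708, 623 and 541 CPM with IPA. Untreated replicate 2 was its highest library, at 1.26 times the mean of untreated replicates 1 and 3 by library totals. The TMM factor of that library, 0.754, would set it further above the others. Rpl13a (ENSMUSG00000074129), which can leave the ribosome and repress inflammatory mRNAs, stood at 266, 1079 and 377 CPM untreated and 429, 371 and 343 CPM with IPA. Rpl38 (ENSMUSG00000057322), needed for the translation of certain Hox mRNAs, stood at 77.4, 689 and 109 CPM untreated and 137, 95.1 and 93.2 CPM with IPA. Both Rpl13a and Rpl38 were highest in untreated replicate 2, by 3.36 and 7.4 times the mean of the other untreated libraries, and overlapped between groups in the other 5. Rpl22 (ENSMUSG00000028936), an RNA-binding protein with a close paralog, stood at 209, 981 and 233 CPM untreated and 239, 212 and 184 CPM with IPA. Its log2 fold change without untreated replicate 2, -0.18 ± 0.14 (SE; edgeR adjusted p = 0.588), was among the 4 most negative of the 56. Those of Rpl10, Rpl13a and Rpl38 were 0.013 ± 0.14, 0.13 ± 0.15 and 0.090 ± 0.17.

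Rpl7 (ENSMUSG00000043716), Rpl18 and Rpl30 were at the edges of the large-subunit values in the 5 libraries. Rpl7 stood at 631, 1253 and 632 CPM untreated and 648, 559.6 and 514 CPM with IPA. Its log2 fold change without untreated replicate 2 was -0.25 ± 0.14 (SE; edgeR adjusted p = 0.399). Rpl18 (ENSMUSG00000059070) stood at 243, 1608 and 359 CPM untreated and 436, 370 and 340.1 CPM with IPA, with a log2 fold change of 0.23 ± 0.16 (adjusted p = 0.517). Rpl30 (ENSMUSG00000058600) stood at 54.4, 253 and 56.9 CPM untreated and 76.5, 59 and 110.4 CPM with IPA. By library totals its 5 libraries other than untreated replicate 2 separated by group, with IPA replicate 3 well above the other 4. IPA replicate 2 exceeded untreated replicate 3 only slightly, an order that depends on the scale. The TMM factors of these 2 libraries in the 5-library comparison were 1.03 and 0.965. Its log2 fold change of 0.46 ± 0.21 was the largest of the 56 and did not pass (edgeR adjusted p = 0.285). With all 6 libraries it was -0.97 ± 0.74, of the opposite sign.

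The excess in untreated replicate 2 was unequal among large-subunit genes. Rpl14 (ENSMUSG00000025794) stood at 399, 3771 and 419 CPM untreated and 511, 409 and 352 CPM with IPA, and Rpl13 (ENSMUSG00000000740) at 639, 3876 and 942 CPM untreated and 1030, 897 and 769.7 CPM with IPA. Rpl15 (ENSMUSG00000012405) stood at 343, 294 and 379 CPM untreated and 421, 369 and 317 CPM with IPA, and Rpl28 (ENSMUSG00000030432) at 179.6, 209.9 and 254 CPM untreated and 283, 243 and 215 CPM with IPA. Rpl14 was thus 9.21 times and Rpl13 4.9 times its mean of untreated replicates 1 and 3 in that library, while Rpl15 was at 0.815 and Rpl28 at 0.968 times. These ratios use library totals. The TMM factor of that library was 0.754, against 1.02 in untreated replicates 1 and 3, so all these ratios, those below 1 included, depend on the scale. Apart from that library, the values of all 4 overlapped between the groups, and their log2 fold changes were -0.062 ± 0.15, 0.078 ± 0.17, -0.081 ± 0.14 and 0.076 ± 0.15 (SE), in the order named. With all 6 libraries Rpl14 had the second most negative log2 fold change of the 56, -2.31 ± 1.01 (edgeR adjusted p = 0.657).

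In the small subunit, Rps6 is the substrate of the S6 kinases downstream of mTORC1. It (ENSMUSG00000028495) stood at 474, 1115 and 489.6 CPM in untreated replicates 1, 2 and 3 and 599.9, 496 and 469 CPM in IPA replicates 1, 2 and 3. Its fold without untreated replicate 2 was 1.00 (95% interval 0.818 to 1.23; edgeR adjusted p = 0.995), and the groups overlapped. Rps27a (ENSMUSG00000020460), which is made as a fusion with ubiquitin and so shares sequence with the other ubiquitin genes, stood at 160.1, 2552 and 197 CPM untreated and 209, 198 and 199 CPM with IPA. It had the largest excess in untreated replicate 2 of all 56 genes, 14.3 times the mean of the other untreated libraries, and its other 5 values kept within a narrow band. By library totals its IPA values lay just above its untreated ones in that band, an order that depends on the scale. Its log2 fold change was 0.071 ± 0.13 without untreated replicate 2 (SE; adjusted p = 0.867), and -2.74 ± 1.17 with all 6 libraries (adjusted p = 0.657).

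Rpsa (ENSMUSG00000032518), the small-subunit protein also described as a laminin receptor, stood at 1054, 4332 and 1129 CPM untreated and 1151, 1040 and 897 CPM with IPA. Rps3 (ENSMUSG00000030744), which lines the mRNA entry channel, stood at 343, 1018 and 421 CPM untreated and 479, 406 and 357 CPM with IPA. Rps20 (ENSMUSG00000028234) stood at 297, 2355 and 455 CPM untreated and 557, 431 and 376 CPM with IPA, and Rps25 (ENSMUSG00000009927), needed for initiation on some internal ribosome entry sites, at 267, 368 and 318 CPM untreated and 319.9, 296 and 248 CPM with IPA. Untreated replicate 2 was the highest library for all 4, but by 1.26 times for Rps25 and by 6.26 times for Rps20, relative to untreated replicates 1 and 3. Their log2 fold changes without it were -0.19 ± 0.15 for Rpsa, 0.0055 ± 0.15 for Rps3, 0.16 ± 0.18 for Rps20 and -0.13 ± 0.14 for Rps25 (SE). None passed the edgeR test, the lowest adjusted p being 0.584 for Rpsa.

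Rps14, Rps19 and Rps24 are known from human anaemias of defective ribosome assembly, Rps14 from the loss of part of a chromosome in marrow cells and the other two from Diamond-Blackfan anaemia. Rps14 (ENSMUSG00000024608) stood at 263, 1849 and 272 CPM untreated and 446, 256 and 221 CPM with IPA. Rps19 (ENSMUSG00000040952) stood at 161, 506 and 247 CPM untreated and 298, 239 and 219 CPM with IPA. Rps24 (ENSMUSG00000025290) stood at 498, 2114 and 445 CPM untreated and 470.3, 401 and 364 CPM with IPA. IPA replicate 1 was above IPA replicates 2 and 3 in all 3 genes, most so for Rps14, whose 95% interval of 0.708 to 1.57 times was accordingly wide. Rps24 had the lowest fold of the 56 without untreated replicate 2, 0.809 (95% interval 0.659 to 0.992; edgeR adjusted p = 0.272), though IPA replicate 1 exceeded untreated replicate 3. Rps19 was among the 4 highest, with a fold of 1.14 (0.897 to 1.45; adjusted p = 0.646), and untreated replicate 3 exceeded all IPA libraries but the first.

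Rps13, Rps2 and Rps18 bind ribosomal RNA of the small subunit. Rps13 (ENSMUSG00000090862) stood at 119, 1069 and 182 CPM untreated and 145, 147 and 141 CPM with IPA, its value in untreated replicate 2 being 7.11 times the mean of the other untreated libraries. Rps2 (ENSMUSG00000044533) stood at 66.3, 101 and 102 CPM untreated and 82.1, 102 and 113 CPM with IPA, and Rps18 (ENSMUSG00000008668) at 48.2, 161 and 79.7 CPM untreated and 65.7, 73.8 and 68.9 CPM with IPA. Both overlapped between groups in all 6 libraries, and their log2 fold changes without untreated replicate 2 were 0.14 ± 0.17 and 0.016 ± 0.17.

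A further 23 genes are given as a group. Their log2 fold changes without untreated replicate 2 ran from -0.16 (Rps4x) to 0.18 (Rpl8), with a lowest adjusted p of 0.679 (edgeR). Untreated replicate 2 was the highest library for 20 of the 23. Across all 23 it stood at 0.955 times (Rpl4) to 6.14 times (Rps12) the mean of the other untreated libraries. Over all 56, untreated replicate 2 exceeded the mean of untreated replicates 1 and 3 by more than 10 times in 2 genes, by 5 to 10 times in 9 and by 2 to 5 times in 30, and was under 2 times in 15. These counts use library totals and depend on the scale. The shares of all IDs with such an excess were not computed. The median excess was 2.39 times in the large subunit and 2.72 times in the small subunit. Across genes the ribosomal protein profile of that library ranked with a Spearman correlation of 0.568 and 0.631 against untreated replicates 1 and 3, as compared with 0.963 between those; genes are not independent replicates, and these ranks reflect transcript length as well. What sets this library apart was not tested.

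The 56 genes are scattered over the mouse genome. All were found by symbol among protein-coding genes of the RefSeq table on GRCm38.p6, the build family the submitters name, and they lie on 18 chromosomes. Of the 56, 24 (42.9%) hold at least 1 annotated small nucleolar RNA within the gene, 47 such RNAs in all, against 372 of 21883 protein-coding genes of the table (1.70%). These small RNAs guide the modification of ribosomal RNA and are commonly cut from introns of ribosomal protein genes. The hosts and the other 32 genes had the same median excess in untreated replicate 2, 2.63 times each, and median log2 fold changes without it of 0.056 and 0.020. Rplp1 (chr9:61913283-61914510) and Rps27a (chr11:29545842-29548040), the pair with an excess above 10 times there by library totals, lie on different chromosomes.

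Many of these genes have processed copies elsewhere in the genome, and how reads that match several copies were counted is not given in the sources used here. Among RefSeq genes, 44 of the 56 have at least 1 pseudogene named after them, 195 in all, from 1 for Rplp0 to 23 for Rps12; copies under other names were not counted. Rps2 has 12 and Rpl30 has 10, and their counts, like those of all 44, are uncertain as measures of the parent gene alone. The median log2 fold change without untreated replicate 2 was 0.040 in the 44 genes with such a named copy and 0.028 in the other 12, and the median excess in that library was 2.71 and 2.46 times. Of the 56, 14 overlap another protein-coding or noncoding gene, Rps27a and Rps20 among them, and reads of such a pair cannot be told apart where strand was not recorded. Rpl35 had 1 other ID whose counts lay within 2% of its own in every library, so its count is uncertain too.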

How the data were processed

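Expression was measured by RNA sequencing in 3 untreated and 3 IPA-treated samples of 4T1 cells. The authors deposited raw read counts per Ensembl gene ID, which the file holds as unnormalized integers. The submitters' processing notes name the builds GRCm38 and mm10; not given in the sources used here are the aligner, the counter, the annotation, strandedness and how multi-mapped reads were treated. Treated columns carry a shorter abbreviation than the sample titles and were matched by letters and number. Symbols came with the gene list; coordinates, pseudogenes and small nucleolar RNAs came from RefSeq (GRCm38.p6), whose table (49997 genes) carries no Ensembl IDs. Sequences are not printed here, and 4 of the 56 genes enter counts and medians but are not reported singly or drawn.

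Counts were fitted across all IDs with edgeR 4.0.16 (R 4.3.3; TMM, filterByExpr, robust quasi-likelihood test), calling at a Benjamini-Hochberg adjusted p under 0.05; all 56 genes passed the filter. Standard errors are the log2 fold change over the square root of F, and 95% intervals use edgeR's degrees of freedom. CPM uses library totals without TMM factors, which over all 6 libraries were 0.754 for untreated replicate 2 and 1.02 to 1.11 for the others. Without untreated replicate 2 the factors were 0.947 and 0.965 in untreated replicates 1 and 3 and 1.02 to 1.04 in the IPA libraries. CPM ratios of IPA over untreated therefore tended to exceed the fitted folds. The level of 3 counts was 0.0509 to 0.88 CPM, which covers counting error only. No pair of replicates agreed within sampling noise (chi-square per degree of freedom of at least 7.14 within groups). Alternatives used DESeq2 1.42.0 and limma-voom 3.58.1, other factors and filters, a replicate block, and samples left out. The procedure was also run on simulated data, whose outcome is not given here and is not used to read the counts of genes called. The gene list, the rule for genes given in full (the extremes of fold change and CPM, and 18 genes chosen for a role) and the alternatives were chosen with earlier results of these data known.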

Additional observations from a re-analysis of the deposited data

How the results depend on the processing

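No alternative called any of the 56 genes in either direction: this held for DESeq2 (50 genes with an adjusted p over 6 samples), limma-voom, RLE factors, upper-quartile factors, library totals, TMM factors computed without the 56 genes, a filter of 1 CPM in 3 samples, no filter, the replicate block, each sample left out, and the 4 settings that combine leaving out untreated replicate 2 with another change. Over all IDs, DESeq2 called 44 higher and 82 lower over 6 samples, and library totals and no filter each called 1 higher, against 0 in the main comparison. Leaving out 1 sample, or both untreated replicate 2 and IPA replicate 1, gave 0 to 719 higher and 0 to 763 lower; with untreated replicate 2 alone left out it was 322 and 564, and leaving out any other single sample gave 0. Without untreated replicate 2, library totals gave 691 higher and 327 lower, DESeq2 665 and 645, and TMM factors without the 56 genes 323 and 558. The median log2 fold change of the 56 genes was -0.83 in the main comparison and -0.49 with library totals, beside 0.13 for all IDs there. With the replicate block it was -0.55 and 0 genes were called; samples sharing a number deviated from their group means with correlations of -0.0771, 0.0183 and 0.161, so the numbers were not taken to pair the samples. Leaving samples out moved it between -1.08 (untreated replicate 1 left out) and 0.035 (untreated replicate 2 left out); it was -0.042 with both untreated replicate 2 and IPA replicate 1 left out. Without untreated replicate 2 it was 0.14 with library totals (all IDs 0.062), 0.061 with DESeq2 and 0.036 with TMM factors that left out the 56 genes. Without the 50 most abundant other IDs the share of counts in the 56 genes was higher in every library, at 2.18%, 7.96% and 2.58% in untreated replicates 1, 2 and 3 and 2.75%, 2.34% and 2.09% in IPA replicates 1, 2 and 3, and the groups still overlapped.

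Of 551 log2 fold changes of the 29 genes described singly under 19 settings, 452 kept the sign of the main comparison and 99 did not, none of them passing a test. Of the 99, 60 combine leaving out untreated replicate 2 with another scaling or test. Most of the rest arose with that library left out alone or together with IPA replicate 1. None of these signs carries a call. Positive values with library totals over 6 samples were Rpl10 0.0020, Rpl15 0.12, Rpl23 0.11, Rpl28 0.20, Rps2 0.14. Without untreated replicate 2 and with library totals the values of opposite sign were Rpl10 0.12, Rpl11 0.12, Rpl13 0.18, Rpl13a 0.24, Rpl14 0.046, Rpl15 0.026, Rpl18 0.34, Rpl23 0.15, Rpl28 0.18, Rpl30 0.56, Rpl38 0.20, Rplp0 0.075, Rplp1 0.24, Rplp2 0.29, Rps14 0.19, Rps18 0.12, Rps19 0.30, Rps2 0.24, Rps20 0.27, Rps27a 0.18, Rps3 0.11, Rps6 0.11; with DESeq2, Rpl10 0.038, Rpl11 0.036, Rpl13 0.10, Rpl13a 0.16, Rpl18 0.26, Rpl23 0.073, Rpl28 0.10, Rpl30 0.48, Rpl38 0.12, Rplp1 0.16, Rplp2 0.22, Rps14 0.11, Rps18 0.042, Rps19 0.22, Rps2 0.16, Rps20 0.19, Rps27a 0.096, Rps3 0.031, Rps6 0.029; with TMM factors without the 56 genes, Rpl10 0.014, Rpl11 0.010, Rpl13 0.079, Rpl13a 0.14, Rpl18 0.23, Rpl23 0.047, Rpl28 0.077, Rpl30 0.46, Rpl38 0.090, Rplp1 0.13, Rplp2 0.19, Rps14 0.079, Rps18 0.017, Rps19 0.19, Rps2 0.14, Rps20 0.16, Rps27a 0.072, Rps3 0.0064, Rps6 0.0049. With samples left out the ranges of the genes whose sign changed were Rpl10 -0.36 to 0.013, Rpl11 -1.01 to 0.0095, Rpl13 -1.77 to 0.078, Rpl13a -1.26 to 0.13, Rpl18 -1.72 to 0.23, Rpl23 -0.28 to 0.046, Rpl28 -0.14 to 0.076, Rpl30 -1.32 to 0.55, Rpl38 -2.28 to 0.090, Rplp1 -2.66 to 0.13, Rplp2 -1.87 to 0.19, Rps14 -2.23 to 0.078, Rps18 -1.09 to 0.090, Rps19 -0.88 to 0.19, Rps2 -0.28 to 0.28, Rps20 -2.00 to 0.16, Rps27a -3.21 to 0.092, Rps3 -1.12 to 0.0055, Rps6 -0.99 to 0.0040. The cause was not tested beyond leaving out untreated replicate 2, which by construction removes the library with the high values. The lowest count of the 56 genes was 224, in the shallowest library, IPA replicate 1; the part of depth in the results was not tested.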
